A study of Homo sapiens with 27 samples.

Results

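The response of HCC827 cells to 48 h of MET inhibition was measured as the difference between 3 arrays of cells given the MET kinase inhibitor SGX-523 and 3 arrays of cells given its solvent. The members are therefore these 6 of the 27 arrays of the series, chosen by their titles, and every gene with enough signal was compared. HCC827 is a human non-small cell lung cancer line, which per the series' text has active c-Met without dependence on it. The other 21 arrays are the 3 HCC827 arrays at 24 h and 18 arrays of the lines EBC-1 and MKN-45, which the study calls addicted to MET. The treated group received SGX-523 at 1 uM for 48 h, and the control group received DMSO with no time given for it in the labels. The labels name no engineered change in the cells of either group and give both groups the same growth conditions. Because the control time is not stated, 48 h of drug and any difference in time in culture cannot be told apart.

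MET is the receptor of hepatocyte growth factor. It signals through adaptor proteins to the RAS-ERK cascade, to PI3K and AKT, which hold FOXO transcription factors out of the nucleus, and to STAT3. HCC827 carries an activating deletion in EGFR, a receptor that feeds the same cascades. In the study HCC827 served as the negative control, so the comparison asks which transcripts move when MET is blocked in a cell that does not depend on it.

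The 6 arrays had medians between 5.71 and 5.73 on the deposited log2 scale, and Pearson's r across probe sets was 0.9967 to 0.9974 within a group and 0.9929 to 0.9941 between groups. Precision is set by having 3 arrays per group, and a typical 95% confidence interval reached 0.128 log2 units to either side of a difference (median standard error 0.0613). Of the 9 HCC827 arrays, replicate 3 at 24 h stood apart, with r of 0.962 to 0.967 to the other 8. It was kept out of the spread used here and its values are named wherever 24 h is described. The 3 arrays of each group are titled biological replicates, and the p-values rest on the spread between them. The ratio of the 3 prime to the 5 prime probe sets of ACTB, a sign of RNA length, was 2.079 ± 0.071 in DMSO and 2.33 ± 0.096 at 48 h (SD, n = 3, log2), without overlap (exact permutation test, two-sided, p = 0.1, which is the lowest value possible with 3 arrays a group). For GAPDH it was 0.14 ± 0.02 and 0.134 ± 0.019 (exact permutation p = 0.7). The part of RNA length in the results below was not tested.

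Epithelial and part of the lung lineage markers were present. EPCAM, an epithelial adhesion protein, lay between 12.58 and 12.64 on the 6 arrays. NKX2-1, the lung lineage transcription factor, lay between 9.15 and 9.24 in DMSO and between 9.35 and 9.47 at 48 h, and NAPSA, an aspartic protease of alveolar cells, between 9.56 and 9.62 and between 10.07 and 10.27. Only 9 of 19 measured lung lineage genes passed the filter on low signal, and SFTPA1, SCGB1A1, SLC34A2, SFTPD, AQP5 and HOPX, markers of alveolar and airway cells, lay under it. Of the markers of other cell types, 9 of 10 measured fibroblast genes, 10 of 11 leukocyte genes and 6 of 6 endothelial genes stayed under the same filter. Their mean level per array was 4.07 to 4.17 in DMSO and 4.09 to 4.23 at 48 h for fibroblasts, 4.33 to 4.41 and 4.35 to 4.41 for leukocytes, and 4.72 to 4.85 and 4.81 to 4.92 for endothelium.

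MET itself did not pass the test. Its log2 signal was 12.20, 12.24 and 12.18 in DMSO and 12.21, 12.26 and 12.21 at 48 h, a difference of 0.02 ± 0.03 (SE; limma, adjusted p = 0.644), and none of its 5 probe sets above the filter was called. EGFR stood at 12.03, 11.95 and 12.004 in DMSO and at 12.08, 12.001 and 12.08 at 48 h (0.06 ± 0.03, adjusted p = 0.137). One of its other probe sets was lower (-0.169) and differed beyond the threshold. HGF, which binds MET, had 4 probe sets and each lay under the filter. These transcripts do not report the kinase activity that SGX-523 blocks.

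Of 10912 genes tested, 2460 (22.5%) were higher and 2808 (25.7%) lower at 48 h at an adjusted p under 0.05 (limma with Benjamini-Hochberg adjustment), together 5268 (48.3%). Counts of called list members given below are to be read against these shares, and several lists lie near them. Most of the called changes were small. At least 1.5-fold changes were called for 304 genes higher (2.79%) and 127 lower (1.16%), and at least 2-fold changes for 62 higher (0.568%) and 7 lower (0.0641%). The median difference was -0.002 and the range from the 5th to the 95th percentile was -0.387 to 0.448. Because a gene had to reach the array median on 3 of the 6 arrays, 57 genes were tested only through the treated arrays and 30 only through the DMSO arrays, where their level in the other group lay under the median. Of these, 48 were called higher and 24 lower, and they make up 34 of the 304 and 11 of the 127. A difference was built into their selection, and their folds rest on signal near the floor of the array. All 3 treated arrays lay above all 3 DMSO arrays for 2848 genes (26.1%) and below them for 3164 (29.0%). The number called depended on the arrays that set the spread: with the 24 h arrays of HCC827 in the same fit, 1247 genes were called, and with all 27 arrays 2702. Both fits take in the replicate that stood apart, and without it 26 arrays gave 4530. The plot of difference against level shows more large changes upward than downward.

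**Figure D1:**
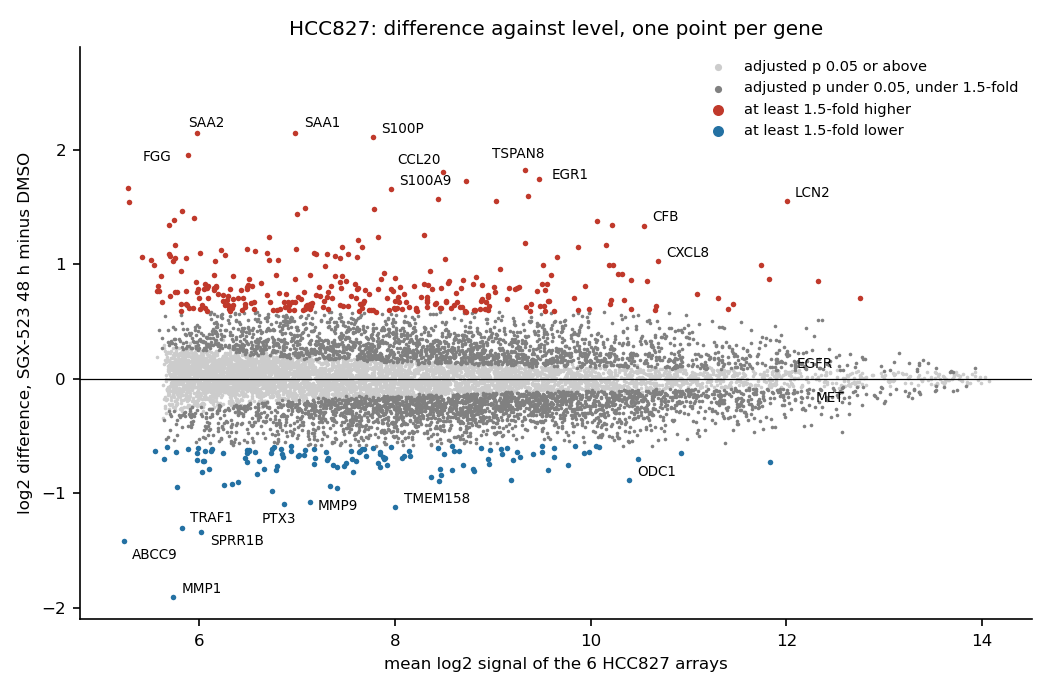
Mean log2 signal of the 6 HCC827 arrays (horizontal) against the log2 difference of SGX-523 at 48 h minus DMSO (vertical), 1 point per gene, with 304 genes at least 1.5-fold higher in red and 127 at least 1.5-fold lower in blue. SAA1, SAA2 and S100P stand at the top, MMP1 at the bottom, and MET and EGFR lie on the zero line at the right.

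The genes with the largest rises included secreted and surface proteins of epithelia. S100P, a calcium-binding protein of the S100 family, had a log2 signal of 6.74, 6.75 and 6.67 in DMSO and of 8.98, 8.92 and 8.60 at 48 h, a 4.33-fold rise (2.12 ± 0.08, adjusted p = 1.25e-13). TSPAN8, a tetraspanin of the cell surface, went from 8.49, 8.42 and 8.34 to 10.28, 10.28 and 10.15 (3.53-fold, adjusted p = 2.15e-15). AGR2, a disulfide isomerase that mucus-producing cells need, went from 7.91, 7.88 and 7.79 to 9.59, 9.69 and 9.51 (3.32-fold, adjusted p = 1.1e-14). In each of these the lowest treated array lay far above the highest DMSO array. S100A9, a subunit of calprotectin, rose from 7.15, 7.38 and 6.87 to 8.84, 8.86 and 8.67 (1.66 ± 0.09). The S100 family as a list did not rise, with 3 of 10 tested genes higher, 4 lower and a median of -0.039. Among all tested genes 22.5% were higher and 25.7% lower. BST2, a membrane protein that tethers budding viruses, rose from 7.86, 7.69 and 7.42 to 9.16, 9.29 and 9.24 (1.57 ± 0.08). LY6D, a GPI-anchored surface protein, rose by 1.55 ± 0.07, although another probe set of it gave -0.049 and was not called. The 15 largest rises among genes above the median level further held CORO2A (1.48), the secreted phosphoprotein SPP1 (1.38), NCOA7 (1.34) and the trypsin inhibitor SPINK1 (1.25).

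Secreted defence genes were among those with the largest rises. The acute phase list holds proteins that liver and epithelia secrete in inflammation, and 13 of its 29 measured genes passed the filter, 4 of them (SAA2, FGG, C3 and SERPINA3) only through the treated arrays. All 13 were called higher, with values from 0.44 to 2.15. Without the filter, 19 of 29 were higher and 1 lower, with a median of 0.51, against 14.3% higher and 15.3% lower of 18132 genes. The lists were chosen with earlier results of these data known, so this share may be set in part by that choice. SAA1 and SAA2, serum amyloid A proteins, rose from 5.68, 6.17 and 5.89 to 8.07, 8.11 and 7.99 (4.42-fold) and from 5.07, 4.93 and 4.70 to 7.11, 7.28 and 6.76 (4.43-fold). These genes are near-identical copies, so their probe sets may report each other. The fibrinogen chains FGB and FGG rose together. FGB stood at 8.63, 8.59 and 8.47 in DMSO and at 10.17, 10.14 and 10.17 at 48 h (1.60 ± 0.05, adjusted p = 4.59e-15). FGG went from 4.85, 5.02 and 4.86 to 7.20, 6.85 and 6.54 (1.95 ± 0.13).

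Other members of the list were abundant before treatment and still rose. LCN2, lipocalin 2, which binds bacterial siderophores, was at 11.21, 11.30 and 11.17 in DMSO and at 12.75, 12.89 and 12.69 at 48 h (2.93-fold, adjusted p = 2.15e-15). CFB, complement factor B, went from 9.87, 9.91 and 9.85 to 11.14, 11.27 and 11.24 (2.53-fold). Complement genes C1R, C1S and C3 rose by 1.09, 0.80 and 1.17, the protease inhibitors SERPINA3, SERPINA1 and SLPI by 1.54, 0.61 and 0.84, and SOCS3, a feedback inhibitor of cytokine signalling, by 0.44. Of the members under the filter, DEFB1, a defensin, had 3.80, 4.07 and 3.93 in DMSO and 5.78, 5.60 and 5.36 at 48 h. HP, ORM1 and ORM2, liver products of the same response, stayed between 3.15 and 4.13 on all 6 arrays.

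Several CXC chemokines that attract neutrophils rose with them, as did CCL20. Under the filter, CCL2, CCL5 and CXCL10 were not called (-0.205, -0.0018 and 0.0226), and CXCL11 was lower (-0.377). In the list of chemokines and NF-kB targets, 16 of 21 tested genes were higher and 3 lower, with a median of 0.69. The shares over all tested genes were 22.5% and 25.7%. The median over all 26 measured genes without the filter was 0.456, with 16 higher and 2 lower. CXCL6 had passed only through the treated arrays, and IL32, which was not called, only through the DMSO arrays. CCL20, the ligand of CCR6, stood at 7.67, 7.49 and 7.60 in DMSO and at 9.37, 9.61 and 9.20 at 48 h (3.49-fold, adjusted p = 1.09e-12). The CXC chemokines CXCL8, CXCL2, CXCL5 and CXCL1 rose by 1.03, 1.00, 0.99 and 0.74, each without overlap and each called on all of its probe sets above the filter. CXCL8 went from 10.20, 10.21 and 10.11 to 11.15, 11.32 and 11.15. CXCL1, CXCL2 and CXCL3 are close copies, so their probe sets may report each other. CXCL6 and CXCL3 rose by 1.39 and 0.91, and the cytokines IL1B, IL1A and IL6 by 0.81, 0.72 and 0.62. Regulators of NF-kB moved both ways. The inhibitor NFKBIA rose by 0.47, while TNFAIP3, an enzyme that edits ubiquitin to limit the pathway, fell by 0.35 and the subunits NFKB1 and RELB fell by 0.17 and 0.21. TRAF1, an adaptor of TNF receptors, had 6.41, 6.70 and 6.33 in DMSO against 5.26, 5.05 and 5.20 (-1.31). It was tested only through its DMSO arrays, since all 3 treated values lay under the array median. PTX3, a long pentraxin, fell from 7.45, 7.26 and 7.54 to 6.36, 6.29 and 6.31 (-1.10 ± 0.08).

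Promoters of several chemokines that rose hold the kappaB letters. The 250 bases before each gene's start were searched on both strands for the kappaB consensus GGGRNWYYCC, which NF-kB proteins bind. In it R is A or G, N any base, W A or T, and Y C or T. Of the chemokine and NF-kB genes with a promoter entry, 8 of 14 called higher (57.1%) and 2 of 2 called lower held it, against 5.05% of all 27305 promoters and 6.06% of those of tested genes. The list was assembled from known NF-kB targets, so its share was set in part by the choice of genes and supports nothing here. The genes at least 1.5-fold higher held it in 11.1%, those at least 1.5-fold lower in 9.28%. The last 200 bases before the start are shown 5′ to 3′ on the gene's strand from RefSeq (GRCh38.p14), with the kappaB match in capitals, to let the pairs CXCL1 and CXCL2, and CXCL5 and CXCL6, be compared beside CCL20 and LCN2.
CCL20 (chr2:227813642-227813841, plus strand): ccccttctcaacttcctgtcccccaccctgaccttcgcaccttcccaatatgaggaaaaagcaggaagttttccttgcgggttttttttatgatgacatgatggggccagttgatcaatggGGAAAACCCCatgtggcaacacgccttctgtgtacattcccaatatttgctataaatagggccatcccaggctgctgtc
CXCL1 (chr4:73869193-73869392, plus strand): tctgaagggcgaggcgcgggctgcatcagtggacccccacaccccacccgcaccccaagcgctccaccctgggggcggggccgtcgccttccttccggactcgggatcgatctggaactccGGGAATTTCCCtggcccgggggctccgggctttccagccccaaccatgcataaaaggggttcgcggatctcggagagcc
CXCL2 (chr4:74099196-74099395, minus strand): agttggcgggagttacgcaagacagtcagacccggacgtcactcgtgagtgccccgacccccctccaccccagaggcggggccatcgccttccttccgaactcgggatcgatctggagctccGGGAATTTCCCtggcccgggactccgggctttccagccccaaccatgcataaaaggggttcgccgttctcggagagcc
CXCL5 (chr4:73998678-73998877, minus strand): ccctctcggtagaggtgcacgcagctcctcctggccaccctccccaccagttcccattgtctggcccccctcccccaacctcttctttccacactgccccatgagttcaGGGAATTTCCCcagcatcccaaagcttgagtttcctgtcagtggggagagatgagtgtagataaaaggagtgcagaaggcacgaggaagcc
CXCL6 (chr4:73836478-73836677, plus strand): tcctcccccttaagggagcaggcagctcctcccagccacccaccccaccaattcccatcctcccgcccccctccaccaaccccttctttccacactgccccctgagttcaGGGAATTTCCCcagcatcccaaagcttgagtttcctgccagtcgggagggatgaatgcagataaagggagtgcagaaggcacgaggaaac
LCN2 (chr9:128149253-128149452, plus strand): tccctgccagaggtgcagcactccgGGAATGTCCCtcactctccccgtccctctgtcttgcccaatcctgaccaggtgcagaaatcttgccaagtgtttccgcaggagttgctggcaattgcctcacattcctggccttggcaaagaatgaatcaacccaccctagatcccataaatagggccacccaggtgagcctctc
CXCL1 and CXCL2 rose by 0.74 and 1.00 and carry the match at nearly the same distance from the start, as do CXCL5 and CXCL6, which rose by 0.99 and 1.39. The window of CXCL8, which rose by 1.03, holds no full match to these letters. It does hold TGGAATTTCC, which departs from them only in the first base, so a strict search passes over it. Matching letters are a description of the sequence and do not show binding.

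STAT3 pathway genes and FOXO targets also moved upward. The shares to set beside them are 22.5% higher and 25.7% lower of all tested genes. These lists too were chosen with earlier results of these data known. In the STAT3 list, 11 of 14 tested genes were higher and 1 lower, with a median of 0.45. When probe sets of a gene were averaged the median was 0.247, and 9 were higher and 0 lower. BCL6, a transcriptional repressor that stands on both lists, went from 6.92, 6.84 and 6.90 to 8.02, 8.04 and 8.07 (2.23-fold, adjusted p = 4e-11). CEBPD, a transcription factor of the acute phase, rose from 9.88, 9.85 and 9.85 to 10.75, 10.81 and 10.77 (0.92 ± 0.04). STAT3 itself rose by 0.39, the kinase PIM1 by 0.53 and BCL3 by 0.59, while the shared receptor chain IL6ST fell by 0.19. Of 20 tested FOXO targets and feedback receptors, 16 were higher and 1 lower, with a median of 0.42. CCNG2, an atypical cyclin, went from 7.89, 7.90 and 7.87 to 8.80, 8.83 and 8.87 (0.94 ± 0.05). GABARAPL1, an autophagy protein, rose by 0.86, TP53INP1 by 0.76, the mitochondrial kinase PDK4 by 0.87 and the cell cycle inhibitor CDKN1B by 0.44. PIK3IP1 and IRS2 of the same list did not pass (0.01 and 0.04).

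Receptor genes and MET adaptors gave smaller values. The shares over all tested genes were 22.5% higher and 25.7% lower. ERBB3, the partner receptor that couples to PI3K, rose from 7.83, 7.71 and 7.65 to 8.53, 8.45 and 8.42 (0.74 ± 0.06, adjusted p = 9.1e-09). INSR, the insulin receptor, rose by 0.67 and FGFR3 by 0.87. In the list of ERBB receptors and ligands, 3 of 9 tested genes were higher and 3 lower, with a median of 0.04. The 3 lower ones were ligands: HBEGF fell from 7.65, 7.66 and 7.53 to 6.95, 7.06 and 6.91, TGFA by 0.48 and NRG1 by 0.29. Other probe sets of NRG1 gave -0.072 and -0.136 and were not called. The ligands EREG (0.04) and BTC (-0.14) were not called, nor was EGF under the filter (0.299). Of 13 tested MET adaptors and regulators, 6 were higher and 0 lower at an adjusted p under 0.05, led by PIK3R1 (0.60), the regulatory subunit of PI3K, and the exchange factor SOS1 (0.52). Another probe set of SOS1 gave -0.052.

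ERK output did not fall as a group. Of 22 tested genes of that list, 8 were higher and 9 lower, with a median of -0.04, beside 22.5% and 25.7% of all tested genes. EGR1, an immediate early transcription factor, rose from 8.56, 8.72 and 8.52 to 10.27, 10.53 and 10.25 (3.36-fold, adjusted p = 8.7e-14), and its 5 probe sets were all higher, by 0.349 to 2.054. DUSP6, the ERK phosphatase, was at 8.63, 8.70 and 8.57 in DMSO and at 8.92, 8.95 and 8.93 at 48 h. Members that fell included FOSL1, a FOS family member, from 9.48, 9.68 and 9.54 to 8.86, 8.80 and 8.91 (-0.71 ± 0.05), and CCND1, the G1 cyclin, from 10.64, 10.73 and 10.61 to 10.05, 10.11 and 10.18 (-0.55 ± 0.04). Probe sets of PHLDA1 were called in both directions.

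Genes of DNA replication fell while genes of mitosis hardly moved. In the G1/S list, 24 of 25 tested genes were lower and 0 higher, with a median of -0.31. CCNE2, a cyclin of S phase entry, went from 8.70, 8.81 and 8.88 to 8.03, 7.89 and 7.89 (1.81-fold lower, adjusted p = 1.21e-09). UHRF1, which keeps DNA methylation through replication, went from 10.10, 10.17 and 10.18 to 9.44, 9.38 and 9.37 (-0.75 ± 0.04). The falls of CDC6, RRM2, FEN1 and MCM3 were -0.51, -0.50, -0.45 and -0.43. In the mitosis list, 9 of 28 tested genes were lower and 5 higher, with a median of -0.04. Over all tested genes, 25.7% were lower and 22.5% higher. CDC20 and AURKB fell by 0.34 and 0.30, whereas CCNB2 and CENPF rose by 0.27 and 0.24, and MKI67 was at 0.07 (adjusted p = 0.225).

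Ribosome biogenesis fell as well. Of 21 tested genes, 19 were lower and 0 higher, with a median of -0.41, beside 25.7% and 22.5% of all tested genes. RRP12, which exports pre-ribosomes, went from 9.31, 9.30 and 9.23 to 8.63, 8.67 and 8.69 (-0.62 ± 0.05), and RRS1, a ribosome assembly factor, from 11.24, 11.24 and 11.26 to 10.71, 10.74 and 10.72 (-0.53 ± 0.03). LYAR, NOP16, NIP7 and DKC1 fell by 0.58, 0.54, 0.46 and 0.41. MYC, a driver of these genes, was itself higher, at 11.91, 11.97 and 11.89 in DMSO and at 12.15, 12.13 and 12.11 at 48 h (0.21 ± 0.03). ODC1, the first enzyme of polyamine synthesis, fell from 10.81, 10.85 and 10.86 to 9.97, 10.001 and 9.89 (1.85-fold lower, adjusted p = 1.85e-12).

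**Figure D2:**
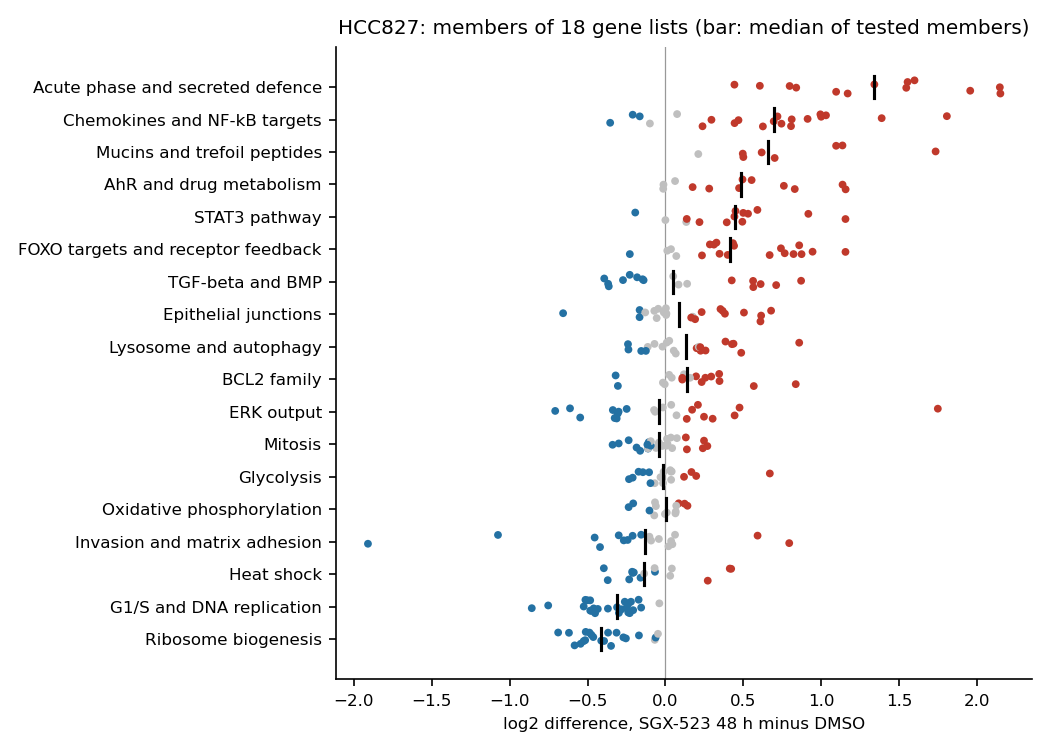
Log2 differences of the tested members of 18 gene lists, 1 point per gene, red where called higher, blue where called lower and grey where not called, with a black bar at each median. The 13 acute phase genes lie between 0.44 and 2.15, 4 of them tested only because the treated arrays lifted them past the filter, and the G1/S and ribosome biogenesis lists lie left of zero at -0.31 and -0.41.

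The 15 largest falls among genes above the median level were led by TMEM158, a membrane protein, at 8.43, 8.59 and 8.68 in DMSO and 7.37, 7.33 and 7.62 at 48 h (-1.12 ± 0.08). CHAC2, a glutathione-degrading enzyme, fell from 8.93, 8.83 and 8.93 to 7.95, 8.03 and 8.04. NEXN, an actin-binding protein, fell by 0.88 on its brightest probe set, and its 7 probe sets gave -1.128 to -0.575. SNAI2, a repressor of epithelial genes, fell from 8.96, 8.98 and 9.02 to 8.28, 8.22 and 8.08 (1.73-fold lower). ODC1 and CCNE2, described above, stood at -0.89 and -0.86. The others lay between -0.84 for MARS2 and -0.75 for NAV3, and the absence of overlap was a condition of the choice.

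**Figure D3:**
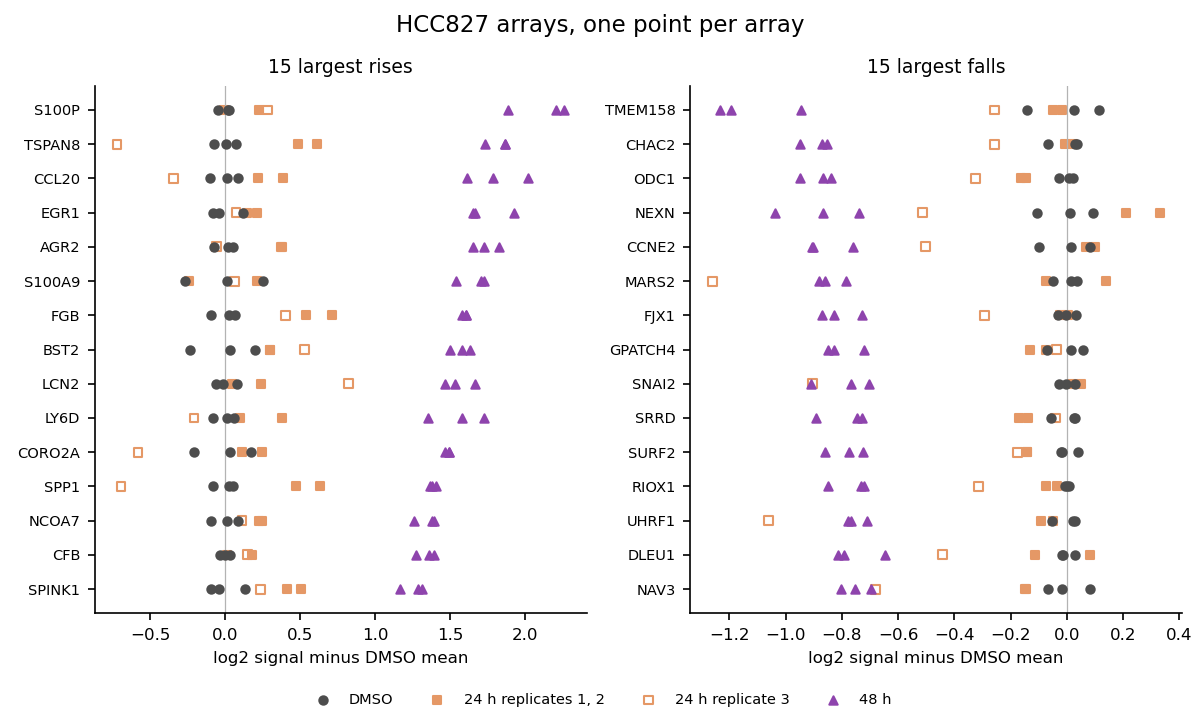
Log2 signal of each HCC827 array minus the DMSO mean for the 15 largest rises (left) and the 15 largest falls (right) among genes above the median level, 1 point per array. The 48 h triangles lie apart from the DMSO circles in every row, as the choice of genes requires, while the 24 h squares of replicates 1 and 2 lie near zero for most genes and replicate 3 scatters.

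Matrix proteases divided. MMP1, a collagenase, was at 6.80, 6.63 and 6.63 in DMSO and at 5.02, 4.63 and 4.69 at 48 h, and its probe sets gave -1.904 and -1.908. It was tested only through its DMSO arrays, and its treated signal lay under the array median, so the size of its fall is uncertain. MMP9, a gelatinase, fell from 7.79, 7.59 and 7.62 to 6.46, 6.68 and 6.63 (-1.07 ± 0.08). MMP7, matrilysin, rose instead, from 8.16, 8.04 and 8.01 to 8.84, 8.98 and 8.78 (0.79 ± 0.06), as did the inhibitor TIMP2 (0.59). Of the 18 tested genes of invasion and matrix adhesion, 9 were lower and 2 higher, with the laminin chain LAMB3 at -0.45 and the integrin ITGA6 at -0.42. Among all tested genes, 25.7% were lower and 22.5% higher.

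SPRR1B, a cornified envelope protein, fell from 6.74, 6.70 and 6.65 to 5.35, 5.59 and 5.12 (-1.34 ± 0.11), and was tested only through its DMSO arrays. Its promoter is shown because it holds the AP-1 letters TGANTCA (searched on both strands) more than once, in capitals, while 6.6% of all promoters hold them at least once. AP-1 is the dimer of JUN and FOS family proteins, to which FOSL1 belongs. Of 18 tested AP-1 and immediate early genes, 7 were higher and 3 lower, with a median of 0.045. While FOSL1 fell, JUN, FOSL2 and ATF3 rose by 0.29, 0.50 and 0.54. Another probe set of FOSL2 gave -0.198 and was not called, and of the 4 of JUN 2 were called higher. A part of AP-1 in the fall of SPRR1B was not tested.
SPRR1B (chr1:153031003-153031202, plus strand): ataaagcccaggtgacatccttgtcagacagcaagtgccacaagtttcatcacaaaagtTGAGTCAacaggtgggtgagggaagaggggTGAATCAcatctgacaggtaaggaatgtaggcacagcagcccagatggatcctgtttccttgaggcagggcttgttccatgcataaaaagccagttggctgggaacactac
The AP-1 letters were found for 3 of 8 invasion genes with a promoter entry that were called in either direction. They were found in 3.95% of the promoters of tested genes. The genes at least 1.5-fold lower held them in 8.25%, those at least 1.5-fold higher in 4.53%. The invasion list was chosen with earlier results known and its promoters are few, so its count supports nothing here.

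Mucin genes above the filter rose. Of 8 tested mucin and trefoil genes, 7 were higher and 0 lower, with a median of 0.66. Over all 18 measured genes without the filter, 8 were higher and 0 lower with a median of 0.234, and the trefoil peptides TFF1, TFF2 and TFF3, MUC2, MUC13 and CEACAM5 were not called. MUC5B, a gel-forming airway mucin, went from 6.19, 6.77 and 6.29 to 7.52, 7.62 and 7.52 (1.14 ± 0.11), and GCNT3, which branches mucin glycans, from 6.69, 6.63 and 6.63 to 7.83, 7.84 and 7.57 (1.09 ± 0.08). The membrane mucins MUC4, MUC16 and MUC1 rose by 0.70, 0.62 and 0.50. Among epithelial junction genes, 10 of 22 were higher and 3 lower, with claudins CLDN4 and CLDN3 at 0.68 and 0.61. Over all tested genes, 22.5% were higher and 25.7% lower. The splicing regulators ESRP1 and ESRP2 went opposite ways, at 0.50 and -0.66. In the mesenchymal list 6 of 16 were lower and 2 higher, with VIM, the intermediate filament vimentin, at -0.42 and FN1 at 0.36.

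Genes of xenobiotic metabolism above the filter were mostly higher. In the list of the aryl hydrocarbon receptor and drug metabolism, 9 of 12 tested genes were higher and 0 lower, with a median of 0.48. The median was 0.319 when probe sets of a gene were averaged, and 0.167 over all 22 measured genes without the filter, 11 of them higher. CYP1B1, an oxidase that this receptor induces, went from 9.33, 9.27 and 9.29 to 10.48, 10.56 and 10.32 (2.23-fold), and the receptor's repressor AHRR rose by 1.14 on 1 of its probe sets while another gave -0.026. The TGF-beta and BMP list was divided, with 6 of 17 tested genes higher and 8 lower and a median of 0.05. The shares over all tested genes were 22.5% and 25.7%. ID1, ID2, ID3 and ID4, inhibitors of differentiation, rose by 0.71, 0.61, 0.56 and 0.56, and the ligand BMP2 by 0.87, while SKIL, a repressor of SMAD proteins, and the ligand chain INHBA fell by 0.39 and 0.37. The stress cytokine GDF15 rose from 7.18, 7.23 and 7.23 to 8.48, 8.54 and 8.33 (1.24 ± 0.06) on 3 of its 4 probe sets. In the BCL2 family list, which holds survival and death genes, 10 of 18 were higher and 2 lower. The BH3-only death genes BMF (0.84) and BBC3 (0.57) had the largest values on their brightest probe sets. Other probe sets of BMF gave 0.256 and 0.299, and the other of BBC3 gave 0.172 and was not called. BIK, also a BH3-only gene, fell by 0.32, and all of its probe sets were called lower. The survival gene MCL1 (0.20) was also among those higher, although the mean of its probe sets gave -0.0184.

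Stress programmes gave mixed values, to be set beside 22.5% higher and 25.7% lower of all tested genes. Of the ATF4 targets and amino acid genes, 10 of 26 genes were higher and 7 lower, with NUPR1, a stress-induced chromatin protein, from 5.09, 5.10 and 5.26 to 6.39, 6.25 and 6.08 (1.09 ± 0.11, tested only through the treated arrays) and the amino acid transporter SLC7A5 at -0.26. Of 18 ER chaperone genes, 7 were higher and 4 lower. PDIA3, a disulfide isomerase of the ER, went from 9.79, 9.84 and 9.58 to 10.74, 10.73 and 10.72 on its brightest probe set, but its other probe set gave 0.105 and was not called. Heat shock genes were lower for 8 of 15 and higher for 3, with CHORDC1, a partner of HSP90, at -0.40 and the small heat shock protein HSPB1 at 0.42. Among 18 p53 targets, 9 were lower and 4 higher, and AEN, an apoptosis nuclease, fell from 7.70, 7.79 and 7.74 to 7.18, 6.85 and 6.95. The NRF2 list had 9 of 16 genes higher and 2 lower. Its aldo-keto reductases AKR1C3 and AKR1B10 rose by 1.00 and 0.73, and the glutathione synthesis subunit GCLM fell by 0.31. In the hypoxia list, 8 of 15 were higher and 3 lower, with NDRG1 at 0.69 and ANGPTL4, a lipase inhibitor, at -0.66.

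Metabolic lists showed no common direction. Their medians were -0.01 for glycolysis, where 4 of 18 genes were higher and 6 lower, -0.04 for cholesterol synthesis with 4 of 15 each way, and -0.07 for fatty acid synthesis with 2 of 9 each way (0.005 without the filter). Oxidative phosphorylation had 3 of 15 higher and 4 lower, and its called members named by the rule lay between -0.24 for CYC1 and 0.14 for COX7A2. Lysosome and autophagy genes were higher for 10 of 22 and lower for 4, led among hydrolases by TPP1 (0.49), CTSB (0.44) and CTSD (0.43). Over all tested genes, 22.5% were higher and 25.7% lower.

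Interferon genes did not follow BST2. Of 23 tested genes of that list, 6 were higher and 6 lower, with a median of -0.08. Both counts are near the shares over all tested genes, 22.5% higher and 25.7% lower. GBP2, a guanylate-binding protein, went from 7.06, 7.21 and 6.997 to 8.30, 8.19 and 8.24 (1.16 ± 0.07), while ISG15, a ubiquitin-like modifier, and GBP1 fell by 0.22 and 0.23. Of the 5 probe sets of GBP1, 2 were called lower and the others were not called. MHC class I genes were higher for 6 of 14 and lower for 2, with HLA-F and PSMB8, an immunoproteasome subunit, at 0.40 and 0.31 and the peptide transporter subunits TAP1 and TAP2 at -0.27 and -0.26. Other probe sets of TAP2 included values of 0.007 and -0.103 that were not called. B2M, the light chain, was at 0.00 (not called). Of 8 tested reference genes, 1 was higher and 3 were lower, and the values lay between -0.17 and 0.16.

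The 24 h arrays share their DMSO arrays with the 48 h comparison, so their values are set side by side only. SAA1 was at 6.49, 6.47 and 6.08 at 24 h, CCL20 at 7.97, 7.81 and 7.25, and EGR1 at 8.81, 8.75 and 8.67, the last value of each from the replicate that stood apart. The medians at 24 h were 0.17 for the acute phase list and 0.109 without replicate 3. They were -0.109 and -0.015 for the G1/S list, and -0.03 and -0.039 for ribosome biogenesis.

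The same 48 h comparison in EBC-1 and MKN-45 served as a reference. There, 4042 (37.0%) of the 10912 genes were higher and 3879 (35.5%) lower in EBC-1, and 4364 (40.0%) and 3491 (32.0%) in MKN-45. The response of HCC827 differed from that of EBC-1 for 6713 genes (61.5%) and from that of MKN-45 for 6955 (63.7%) in a test of the difference itself (limma over 18 arrays). Of the 304 genes at least 1.5-fold higher in HCC827, 198 (65.1%) were also higher in EBC-1 and 31 (10.2%) lower, and 194 (63.8%) were higher in MKN-45 and 38 (12.5%) lower. Their sizes differed from EBC-1 for 253 and from MKN-45 for 247. These genes were chosen for a large HCC827 difference and the same arrays enter this test, so those 2 counts are partly built in. Of the 127 at least 1.5-fold lower, 85 (66.9%) were lower in EBC-1 and 12 (9.45%) higher, and 71 (55.9%) were lower in MKN-45 and 25 (19.7%) higher. HCC827 levels were apparently normalized apart, as its array medians differ from the 5.02 to 5.14 of the other lines, so only differences within a line were compared.

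ERK output and cell cycle genes differed between HCC827 and both other lines. The median of the ERK list was -0.04 in HCC827, -3.07 in EBC-1 and -2.33 in MKN-45, and all 22 genes differed in size from both. DUSP6 rose by 0.30 in HCC827 and fell by 4.51 in EBC-1 and by 5.27 in MKN-45. EGR1 rose by 1.75 and fell by 2.43 and by 3.66. In the mitosis list all 28 genes fell in both addicted lines, with medians of -4.14 and -3.74. Of the 20 FOXO genes, 16 were higher in HCC827, 20 in EBC-1 and 17 in MKN-45, with medians of 0.42, 1.86 and 1.25. The STAT3 list had medians of 0.446, 0.469 and 0.372. Of its 14 genes, 11 were higher and 1 lower in HCC827, 8 and 4 in EBC-1, and 8 and 5 in MKN-45.

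Several acute phase genes rose in HCC827 and were not called in the other lines, while others of the list were. Of its 13 tested genes, 4 were higher and 1 lower in EBC-1, and 4 were higher and 2 lower in MKN-45. SAA1, SAA2, FGG and SERPINA3 were called in neither EBC-1 nor MKN-45 (0.06 and 0.09, -0.06 and 0.02, -0.14 and -0.15, 0.09 and 0.22). The difference between lines passed the test for SAA1. SAA2, FGG and SERPINA3 were tested only because the treated HCC827 arrays lifted them past the filter, so for them a difference in this direction was built into the selection and no test is given. For FGB the difference was 1.51 to EBC-1 and 1.64 to MKN-45. CFB rose more in both of them (3.09 in each) than in HCC827 (1.34). S100P rose in EBC-1 by 2.91 and fell in MKN-45 by 1.78. CXCL8 fell in EBC-1 by 3.90 and in MKN-45 by 0.49, and CCL20 rose in MKN-45 by 2.80 but gave -0.07 in EBC-1 (adjusted p = 0.64). The filter was set on the HCC827 arrays alone, so genes with low signal in the other lines were not set aside. Such genes would have little room to fall there. Among falls, PTX3 and MMP9 were called in neither other line and differed from both, and genes were picked here for that difference. TRAF1 and ABCC9, a potassium channel subunit, were likewise called in neither, but had been tested only through the HCC827 DMSO arrays. TMEM158 fell by 3.17 in EBC-1 and rose by 5.06 in MKN-45.

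**Figure D4:**
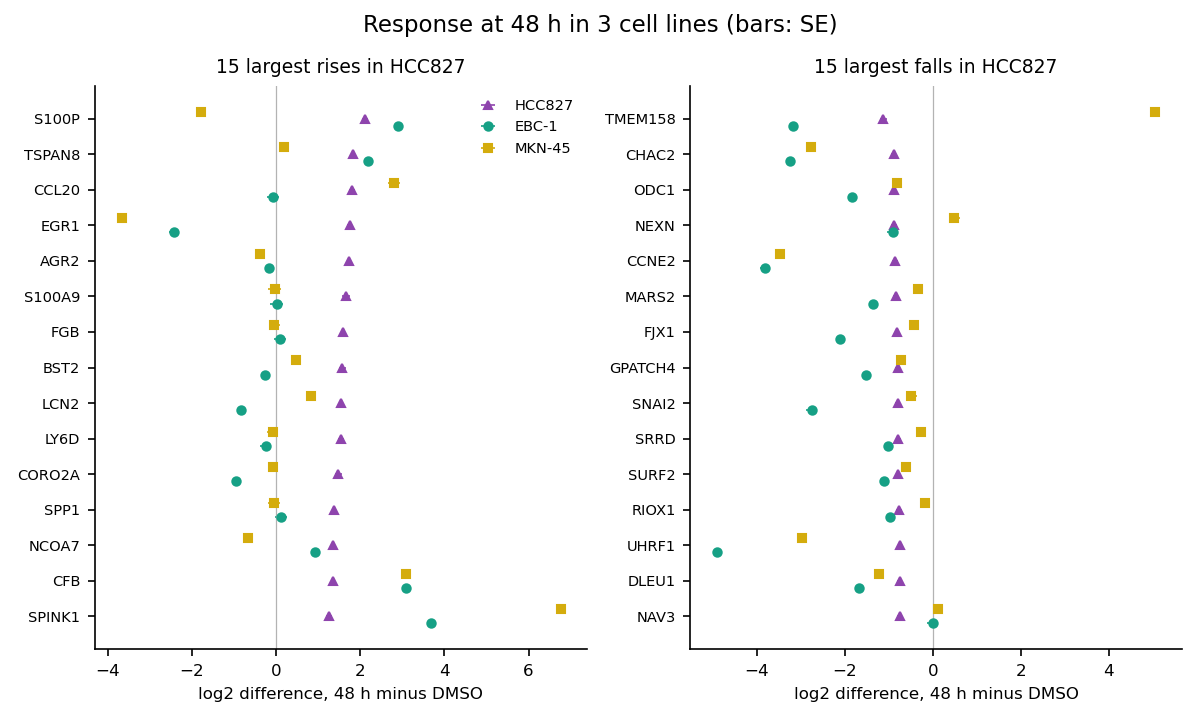
Log2 difference at 48 h minus DMSO in HCC827 (triangles), EBC-1 (circles) and MKN-45 (squares) for the 15 largest rises (left) and falls (right) of HCC827 among genes above the median level, with bars of 1 SE. S100A9 and FGB rise in HCC827 and stay near zero in the other lines, while EGR1 and TMEM158 take opposite signs between lines.

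**Figure D5:**
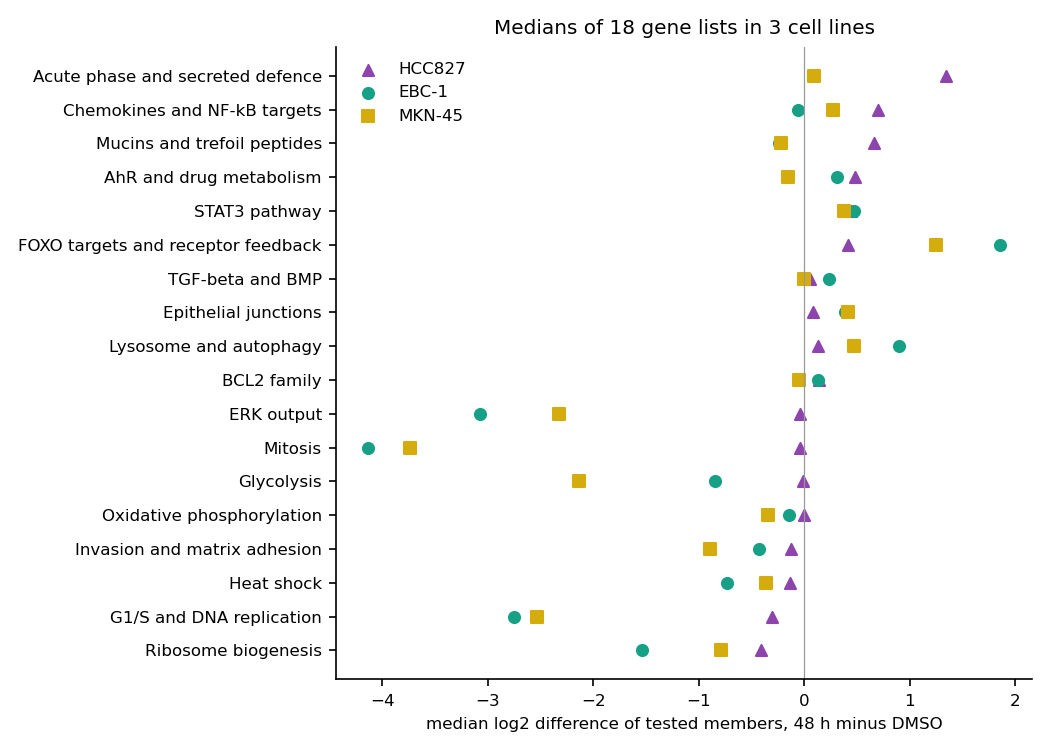
Median log2 difference at 48 h of the tested members of 18 gene lists in HCC827 (triangles), EBC-1 (circles) and MKN-45 (squares). The ERK, mitosis and G1/S medians lie between -4.14 and -2.33 in EBC-1 and MKN-45 and between -0.31 and -0.04 in HCC827, and the acute phase median of HCC827 is 1.34, over 13 genes of which 4 passed the filter only through its treated arrays.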

How the data were processed

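Total RNA of cultured cells was labelled with a 3 prime kit and read on Affymetrix arrays, per the labels' protocols. The deposited table holds 1 log2 value per probe set and array for 49395 probe sets. The submitters' processing notes name MAS5 without saying what it was used for, and how these log2 values were normalized was not given in the sources used here. Source names of the control arrays count upward in the name of the line, and groups were taken from titles. A pseudocount of 16 had been planned for linear values and was left out, as the table is logarithmic.

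By the platform annotation, 44988 probe sets named 1 gene, 1832 several and 2473 none, and 102 were controls. Probe sets at or above the median of the array on at least 3 of the 6 arrays were retained, and the brightest kept one stood for its gene. Genes were fitted with limma 3.58.1 in R 4.3.3 (lmFit, eBayes with intensity trend) on the 6 arrays, and over 18 arrays for differences between lines, with Benjamini-Hochberg adjustment and a threshold of 0.05. The fit was tested on simulated data. Calls of at least 1.5-fold and 2-fold, and genes whose groups do not overlap, were counted as well. Deviations from the group mean correlated at 0.009, 0.046 and 0.125 between same-numbered arrays, and at -0.117 to 0.081 between the others. Any pairing by replicate number was therefore weak, and the main fit used none.

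Named genes were MET, HGF and EGFR, the 15 largest rises and 15 largest falls among called genes with no overlap and a level above the median, up to 6 called members per list by adjusted p, the genes that differed most from both other lines, and the most stable list genes. Further list members were named after their values were seen. The members and lists were chosen with earlier results of these data known. Alternatives covered normalization, pseudocount, filter, moderation, arrays in the fit, probe sets, the replicate block and each array left out.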

Additional observations from a re-analysis of the deposited data

Results flagged for a closer look

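The 48 h response of HCC827 differed from that of EBC-1 for 6713 genes and from that of MKN-45 for 6955 genes, in a test of the difference between responses. Among the 6 genes with the largest rises that differed from both lines, the HCC827 minus EBC-1 and HCC827 minus MKN-45 differences were 2.208 and 2.128 for SAA2, 2.085 and 2.052 for SAA1, and 2.096 and 2.107 for FGG. For S100P they were -0.791 and 3.899, for TSPAN8 -0.355 and 1.634, and for CCL20 1.877 and -0.995. The rise of SAA1 exceeded that of both lines, and those of S100P, TSPAN8 and CCL20 exceeded 1 line and fell short of the other. SAA2 and FGG had passed the filter only through the treated HCC827 arrays, so their differences were built into the selection and support nothing.

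Among the 6 largest falls that differed from both lines, the same differences were -1.232 and -1.27 for ABCC9, -1.294 and -1.474 for TRAF1, -1.056 and -1.188 for PTX3, and -0.943 and -0.898 for MMP9. For MMP1 they were 2.41 and -1.074, and for TMEM158 2.051 and -6.185. PTX3 and MMP9 fell further in HCC827 than in either line, while MMP1 and TMEM158 fell further in EBC-1 than in HCC827. Signal in the other lines was not filtered, so low levels there may have left little room for a fall. ABCC9, TRAF1 and MMP1 had passed the filter only through the HCC827 DMSO arrays, so a fall in HCC827 was built into their selection.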

How the results depend on the processing

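Leaving out each array in turn gave 4635 to 4913 called genes in the HCC827 comparison, 6461 to 6624 for the difference from EBC-1 and 6667 to 6907 for the difference from MKN-45. Counts moved past 1.5 times when the spread came from all 27 arrays (2702) or from the 9 HCC827 arrays (1247), and 4530 were called from 26 arrays without HCC827 24 h replicate 3. Under the other settings tried, counts ran from 4010, of only 6479 genes tested with a stricter filter, to 5529 of 10912. Without a filter 5374 of 18132 were called, so counts under different filters are not shares of the same genes. Same-numbered arrays deviated together weakly at most, and with the replicate block 5529, 6819 and 7069 genes were called in these 3 comparisons. MCL1 turned to -0.0184 (limma, adjusted p = 0.722) with the mean of its probe sets, which were called in both directions. For the 15 largest rises and 15 largest falls among genes above the median level and without overlap, 567 of the recomputed values kept the call and 3 lost it, MARS2, SNAI2 and UHRF1 with the spread of the 9 HCC827 arrays. With 64 added to linear values, 130 genes were called at least 1.5-fold higher and 37 lower, against 304 and 127 in the main fit. Adding a constant shrinks every fold, most of all where signal is low, so lower counts were set in advance. Low signal limits genes such as SAA2, FGG and SERPINA3, whose DMSO levels lay below the array median.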
